A study of Homo sapiens with 10 samples.

Results

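SRC family kinases phosphorylate a set of adaptors and kinases at focal adhesions, where integrins are tied to actin, and at invadopodia, the actin-rich protrusions with which invasive cells break down matrix. The mRNAs of 10 genes of these sites were followed here in MDA-MB-231 cells given dasatinib, an inhibitor of SRC family kinases. The 10 genes are *PXN*, *PTK2*, *PTK2B*, *BCAR1*, *NEDD9*, *PARVA*, *TNS3*, *CTTN*, *SH3PXD2A* and *SH3PXD2B*. They were picked by gene symbol from the 36687 rows of the count and TPM tables. All 10 were found, and all 10 were among the 15727 genes that passed the filter on low counts.

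At a focal adhesion, clustered integrins recruit focal adhesion kinase (FAK), which binds SRC, and the pair phosphorylates paxillin and the CAS scaffolds. Phosphorylated paxillin and CAS proteins in turn bind adaptors such as CRK and so feed into RAC activation and protrusion. At an invadopodium, SRC phosphorylates cortactin and the TKS adaptors, which gather the actin nucleation machinery and matrix proteases. α-Parvin is the exception among the 10, since it is chiefly known as the actin-binding partner of integrin-linked kinase. Dasatinib acts on the kinase, and phosphorylation was not measured here. The values below are mRNA levels alone.

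MDA-MB-231 is an established wild-type triple-negative breast cancer line of the basal B subtype. The RNA-seq samples are 2 replicates without drug (0 h, titled sham) and 2 each after 6, 12, 24 and 48 h of dasatinib. Their titles number the replicates and do not say whether they are separate cultures. The dose of 100 nM is given in the figure legend of the study and not in the sample labels. The treatment field of the 0 h samples names the drug as well. They were taken as untreated from their titles and that legend, and every difference from 0 h rests on this reading. Untreated cells from the later times are not among the samples, so a difference from 0 h also holds time in culture. In bulk RNA, a change in the make-up of the culture and a change of RNA per cell cannot be told apart.

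Library totals ran from 40942913 to 49133774 counts. *VIM*, *CAV1*, *MSN* and the other 5 basal B markers were detected in every library (at least 18.0 TPM). Of these 8, 4 had lower mean TPM at 48 h than at 0 h, *CAV1* (913 and 527 TPM at 0 and 48 h), *AXL* (664 and 343), *VIM* (893 and 634) and *CD44* (157 and 89.2), and the other 4 had higher means. The epithelial cadherin gene *CDH1* and the estrogen receptor gene *ESR1* were at or below 0.144 TPM throughout, *PGR* was listed at 0, while *KRT8*, *KRT18*, *ERBB2*, *GATA3* and *FOXA1* were detected (8.49 to 341 TPM). Among markers of other cell types, *CD3E* and *ADIPOQ* were listed at 0, and *PTPRC* and *CDH5* stayed at or below 0.145 and 0.742 TPM. The endothelial marker *PECAM1* ranged from 0.500 to 3.61 TPM, with means of 0.637 at 0 h and 3.45 at 48 h. The 12 h replicate 1 library stood apart, with a highest correlation to any library of 0.955 against 0.983 to 0.987 for the other 9, and its mitochondrially encoded mRNAs made up 7.94% of counts against 5.42% in 12 h replicate 2. At 48 h that share was 7.24% and 6.73%, against 5.72% and 5.07% at 0 h. The part of these shifts in the results below was not tested. Because the 5 groups share 1 estimate of the spread, the 12 h libraries also bear on the tests at other times, and counts of changed genes are therefore also given without both of them, an alternative added after the data were seen.

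Counts were tested with edgeR's quasi-likelihood test, with Benjamini-Hochberg adjustment over all 15727 genes and a threshold of 0.05. "Higher", "lower", "rose" and "fell" are used for genes past it. SE stands for standard error. Levels within a gene are given as CPM (counts relative to library size, scaled by TMM). At 6 h, 1 of the 10 genes was higher and 1 lower, where 2.73% of all genes tested were called in either direction (1.24% higher, 1.49% lower). At 12 h, 2 were higher and 0 lower by edgeR (7.15% of all genes called, 3.93% higher and 3.22% lower), with 3 of the 10 at an unadjusted p under 0.05 and 2 higher by DESeq2. At 24 h, 4 were higher and 1 lower (20% of all genes, 9.73% higher and 10.2% lower), and at 48 h, 6 were higher and 1 lower (32.3% of all genes, 16% higher and 16.3% lower). The median log2 fold change of the 10 at 48 h was 0.44, against 0.01 over all genes tested. Without both 12 h libraries the counts were 1 higher and 3 lower at 6 h (20.7% of all genes called), 5 higher and 2 lower at 24 h (43.2%), with 7 higher and 2 lower at 48 h (54.3%). The 48 h and untreated libraries did not overlap for 9 of the 10, which held for 75% of all genes tested. The 10 genes were chosen with earlier results of these data known, so their share of calls is a description.

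**Figure D1:**
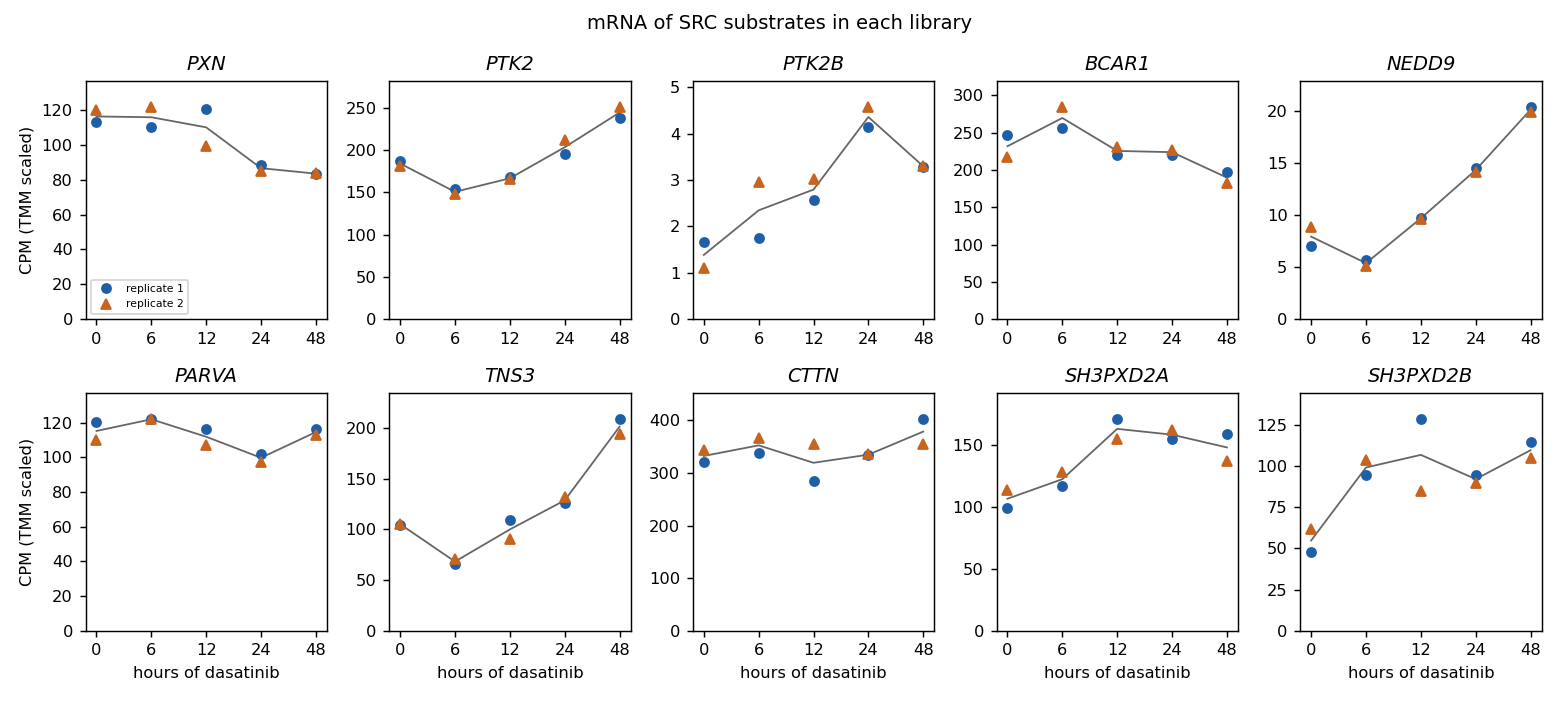
CPM scaled by TMM (y axes, each from 0) of the 10 genes in every library against hours of 100 nM dasatinib (x axes, times evenly spaced, 0 h untreated); circles and triangles are replicates 1 and 2 and lines join their means. *TNS3*, *PTK2* and *NEDD9* have their lowest means at 6 h, where *TNS3* alone of them passed over all libraries, and their highest at 48 h, and *PXN* is lowest at 24 and 48 h.

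*TNS3* mRNA fell within 6 h of dasatinib and then rose well above its starting level by 48 h. *TNS3* encodes tensin-3, which links the tails of β-integrins to actin and is phosphorylated by SRC. On GRCh38 it occupies chromosome 7, positions 47275154 to 47582558, minus strand. The 2 untreated libraries held 105 and 106 CPM. After 6 h they were 65.8 and 70.8 CPM, after 12 h 109 and 90.9, after 24 h 126 and 132, then 209 and 194 after 48 h. Both 6 h libraries thus lay below, and both 24 and 48 h libraries above, the untreated ones. The log2 fold change was −0.62 at 6 h (SE 0.117, edgeR adjusted p = 0.0209) and 0.94 at 48 h (SE 0.117, adjusted p = 0.000221). At 24 h it was 0.29 (adjusted p = 0.11). The fall at 6 h lost its call in 10 of 20 alternatives with its size kept between −0.56 and −0.68. Among them were 7 of the 10 fits with 1 library left out, each library of 0, 6 and 24 h and 48 h replicate 1 (adjusted p from 0.0535 to 0.239). The rise at 48 h was called in all 20.

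The direct test between the 2 treated times gave the widest shift of any of the 10 genes for *NEDD9* and *TNS3*. From 6 to 48 h, *TNS3* rose by a log2 difference of 1.56 (SE 0.119, edgeR adjusted p = 1.44e-05), *NEDD9* by 1.90 (SE 0.167, adjusted p = 2.95e-05) and *PTK2* by 0.70 (adjusted p = 0.000504). *BCAR1* and *PXN* moved the other way and are described below. In this comparison 33.2% of all genes were called (16.2% higher, 17% lower), and 5 of the 10 (3 higher, 2 lower at 48 h). Without both 12 h libraries 4 were higher and 2 lower, with 54.2% of all genes called.

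*PTK2* followed a similar course at a smaller scale. *PTK2*, on chromosome 8, encodes FAK, the kinase that recruits SRC to adhesions. Its CPM was 187 and 181 untreated, 153 and 148 after 6 h, 168 and 165 at 12 h, 195 and 211 after 24 h, then 238 and 250.3 after 48 h. The 6 and 12 h libraries lay below and the 24 and 48 h libraries above both untreated ones. At 48 h the log2 fold change was 0.41 (SE 0.0998, edgeR adjusted p = 0.0106), equal to a level 32.8% higher. At 6 h it was −0.29 (95% interval −0.51 to −0.07), which did not pass over all libraries (adjusted p = 0.186) and passed without both 12 h libraries (adjusted p = 0.00539). The 48 h call was lost without any 1 of the 4 libraries compared, with log2 fold changes of 0.37 to 0.44 and adjusted p from 0.0524 to 0.0975.

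*PTK2B* encodes PYK2, the second kinase of the FAK family, which is activated by calcium as well as by adhesion. It was the least abundant of the 10, with 48 to 209 counts per library. Its CPM was 1.67 and 1.10 untreated, 1.74 and 2.95 after 6 h, 2.57 and 3.02 at 12 h, 4.16 and 4.57 after 24 h, then 3.29 and 3.31 after 48 h. Every treated library was above both untreated ones. Its log2 fold change was 1.65 at 24 h (SE 0.331, edgeR adjusted p = 0.00626) and 1.25 at 48 h (SE 0.331, adjusted p = 0.0157). Without 0 h replicate 2 or 24 h replicate 2 the 24 h call was lost (adjusted p = 0.0696 at most), and without 0 h replicate 2 or either 48 h library the 48 h call was lost (adjusted p = 0.13 at most). It was also lost by limma on log2(TPM + 1), with a log2 fold change of 0.65 on that scale (adjusted p = 0.0546). In TPM, which divides by gene length, the ratio of *PTK2B* to *PTK2* was 0.0131 ± 0.00357 in untreated cells, 0.0375 ± 0.000348 after 24 h and 0.0236 ± 0.000699 after 48 h (SD, n = 2 each), with *PTK2* far above *PTK2B* throughout.

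*NEDD9* rose at 24 and 48 h. It encodes HEF1, also called CAS-L, a CAS family scaffold that FAK and SRC phosphorylate. The gene lies on chromosome 6 from 11183298 to 11382348, on the minus strand. Its CPM was 7.02 and 8.88 in untreated cells and 5.67 and 5.13 at 6 h. It was then 9.77 and 9.64 at 12 h, 14.5 and 14.2 after 24 h, then 20.4 and 20.0 after 48 h, so that from 12 h on the libraries of each time lay wholly above those of the time before. The log2 fold change was 0.85 at 24 h (SE 0.163, edgeR adjusted p = 0.00491, but 0.065 when 0 h replicate 1 was left out) and 1.34 at 48 h (SE 0.163, adjusted p = 0.00019), a 2.54-fold higher level. The 48 h call held in all 20 alternatives. At 6 h the log2 fold change of −0.56 (95% interval −0.93 to −0.19) did not pass over all libraries (adjusted p = 0.122) and passed without both 12 h libraries (adjusted p = 0.014).

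*BCAR1*, the other and more abundant CAS gene of the set, did not pass at any time against untreated cells over all libraries, and was lower at 48 h than at 6 h. It encodes p130Cas, a scaffold whose substrate domain is phosphorylated by SRC family kinases when cells adhere. It lies on chromosome 16 from 75228181 to 75268053, on the minus strand. Its CPM was 247 and 217 untreated, 256 and 284 after 6 h, 220.3 and 231 at 12 h, 221 and 227 after 24 h, then 197 and 182 after 48 h. From 6 to 48 h it fell by 0.51 on the log2 scale (SE 0.113, edgeR adjusted p = 0.00666), a call that was lost without 6 h replicate 2 or 48 h replicate 2 (adjusted p = 0.0748 and 0.0822). Against 0 h the log2 fold change at 48 h was −0.29 (95% interval −0.54 to −0.04, adjusted p = 0.0773) and passed only without a 12 h library or in fits of the 2 groups alone. With *NEDD9* higher, the TPM ratio of *NEDD9* to *BCAR1* went from 0.0308 ± 0.00785 untreated to 0.0179 ± 0.00258 after 6 h and 0.0944 ± 0.00389 after 48 h (SD, n = 2 each).

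*PXN* was the only one of the 10 genes lower at 24 and 48 h by the test over all libraries. It encodes paxillin, the LIM-domain scaffold of focal adhesions whose tyrosines are classic FAK and SRC sites. It lies on chromosome 12 from 120210439 to 120265771, on the minus strand. Its CPM was 113 and 119.7 untreated, 110.2 and 121 after 6 h, and 120.4 and 99.6 at 12 h. It was 88.2 and 84.9 after 24 h, then 83.0 and 83.8 after 48 h, with all 4 late libraries below every earlier one. Its log2 fold change was −0.43 at 24 h (SE 0.119, edgeR adjusted p = 0.0299) and −0.48 at 48 h (SE 0.119, adjusted p = 0.0115), a level 28.2% lower. At 6 h it was −0.01 (95% interval −0.27 to 0.26). The 24 h call was lost without any 1 library of 0, 6, 24 or 48 h (log2 fold change −0.39 to −0.47, adjusted p from 0.0522 to 0.19), and the 48 h call without 0 h replicate 2 or either 48 h library (adjusted p from 0.0687 to 0.0819). Between 6 and 48 h it fell by 0.47 on the log2 scale (SE 0.119, edgeR adjusted p = 0.0118), a call lost without 6 h replicate 2 or either 48 h library (adjusted p from 0.0743 to 0.104). By limma on TPM the 24 h value was −0.33 to −0.34 (adjusted p from 0.121 to 0.188) and the 48 h against 6 h value −0.38 to −0.39 (adjusted p from 0.0541 to 0.0897), neither of which passed in any of the 3 limma fits, and the unfiltered fit also lost the 48 h call (adjusted p = 0.0812). The counts are per gene and do not separate paxillin isoforms. Annotated exons of *PXN-AS1*, on the opposite strand, share 23.7% of the exonic bases of *PXN*. *PXN-AS1* itself had 67 to 122 counts per library against 3697 to 5422 for *PXN*, and the share of *PXN* reads that belong to it could not be measured.

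**Figure D2:**
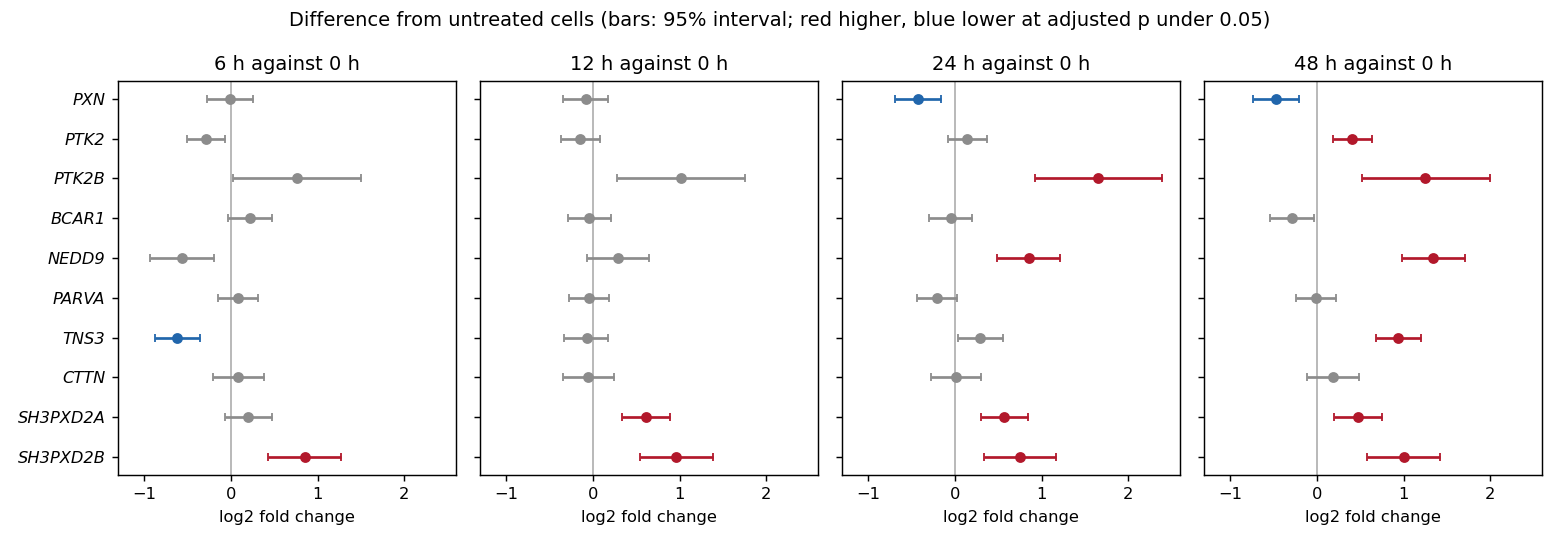
Log2 fold change against 0 h (x axis) of the 10 genes (rows) at 6, 12, 24 and 48 h (panels), with the 95% interval of the edgeR fit as bars; red marks genes higher and blue genes lower at an adjusted p under 0.05, and gray marks the rest. *SH3PXD2B* is red in all 4 panels, *TNS3* is blue at 6 h and red at 48 h, and *BCAR1*, *CTTN* and *PARVA* are gray throughout.

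Both TKS adaptor genes of invadopodia rose, *SH3PXD2B* at every time and *SH3PXD2A* from 12 h. *SH3PXD2A* encodes TKS5 and *SH3PXD2B* encodes TKS4, SH3-domain scaffolds that SRC phosphorylates and that are needed for mature invadopodia. *SH3PXD2B* lies on chromosome 5 from 172325000 to 172454525 and *SH3PXD2A* on chromosome 10 from 103594027 to 103855584, both on the minus strand. The 250 bases before the first annotated start of each are shown because these are the only pair of close paralogs in the set that were both higher at 12, 24 and 48 h. They are read 5′ to 3′ from the RefSeq promoters of GRCh38.p14 (chr5:172454526-172454775 and chr10:103855577-103855826, minus strand), in lower case because none of the motifs searched was found in them.
SH3PXD2B: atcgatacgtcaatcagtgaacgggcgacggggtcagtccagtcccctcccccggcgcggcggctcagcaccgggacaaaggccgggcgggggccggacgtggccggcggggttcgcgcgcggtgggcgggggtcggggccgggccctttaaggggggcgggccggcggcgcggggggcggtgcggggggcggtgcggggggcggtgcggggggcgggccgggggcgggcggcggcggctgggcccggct
SH3PXD2A: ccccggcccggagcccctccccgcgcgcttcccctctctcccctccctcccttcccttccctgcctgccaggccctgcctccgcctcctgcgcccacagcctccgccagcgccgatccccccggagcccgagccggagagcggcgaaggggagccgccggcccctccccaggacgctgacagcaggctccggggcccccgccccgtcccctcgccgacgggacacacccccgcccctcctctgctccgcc

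Both stretches are rich in G and C, with 82.8% in *SH3PXD2B* and 79.6% in *SH3PXD2A*. The motifs searched on both strands were CATTCC (TEAD), TGANTCA (AP-1), CCGGAAGT (ETS) and the SRF CArG box. Over 35116 RefSeq windows of 250 bases, 11.9%, 6.57%, 3.42% and 1.16% held them. The set of RefSeq promoters used here held windows for 6 of the 10 genes (19 windows), with no entry for *CTTN*, *PARVA*, *PTK2* and *PTK2B*. Of the 19, one of *PXN* (chr12:120250213-120250242, minus strand, the match 67 bases before the second listed start) and one of *BCAR1* (chr16:75268053-75268082, minus strand, 64 bases before the first) held a match. The 30 bases around each are shown with the match in capitals, CATTCC in *PXN* and the AP-1 letters in *BCAR1*.
PXN: tgtttccaggaaCATTCCtcttccttaggt
BCAR1: ataggacggagTGAGTCAtcctgggatcat
A match in letters is not a binding site, and counts per gene do not tell which start these cells use.

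The CPM of *SH3PXD2B* was 47.9 and 61.8 untreated, 94.3 and 104 after 6 h, 129 and 85.1 at 12 h, 94.8 and 89.5 after 24 h, then 114 and 105 after 48 h. Each of the 8 treated libraries was above both untreated ones. The log2 fold change was 0.85 at 6 h (SE 0.189, edgeR adjusted p = 0.0437) and 1.00 at 48 h (SE 0.189, adjusted p = 0.0027), and the latter was called in all 20 alternatives. At 12 h it was 0.96 (adjusted p = 0.0165), and at 24 h 0.75 (adjusted p = 0.019). The 12 h value did not pass with edgeR on the 2 groups alone (adjusted p = 0.338). By unfiltered limma neither the 12 h nor the 24 h value passed (adjusted p = 0.077 and 0.0674). A heat map of the study shows this gene among matrix genes chosen partly on these libraries, so its direction is not independent evidence. The 6 h call was lost in 12 of 20 alternatives, including the removal of any 1 library of 0, 6, 24 or 48 h (log2 fold change 0.68 to 1.04, adjusted p from 0.0877 to 0.366). The 12 h call was lost without either 0 h library (adjusted p = 0.0581 and 0.172), and the 24 h call without 0 h replicate 1 or either 24 h library (adjusted p up to 0.168).

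*SH3PXD2A* was slower. Its CPM was 99.6 and 114 untreated, with 117 and 128 after 6 h. It was 171 and 156 at 12 h, 155 and 162 after 24 h, then 159 and 137 after 48 h. All treated libraries lay above the untreated ones, although 6 h replicate 1 did so by little. The log2 fold change was 0.20 at 6 h (95% interval −0.07 to 0.47, edgeR adjusted p = 0.493), 0.61 at 12 h (SE 0.123, adjusted p = 0.0175), 0.57 at 24 h (adjusted p = 0.00895) and 0.47 at 48 h (SE 0.122, adjusted p = 0.0141). In fits of the 2 groups alone the 12 h value did not pass by edgeR (adjusted p = 0.347) or DESeq2 (adjusted p = 0.203). The 12 h call was lost without either 0 h library (adjusted p = 0.0814 and 0.194), the 24 h call without 0 h replicate 1 or either 24 h library (at most 0.108), and the 48 h call without 0 h replicate 1 or 48 h replicate 1 (log2 fold change 0.36 to 0.38, adjusted p from 0.139 to 0.142). The TPM ratio of *SH3PXD2B* to *SH3PXD2A* was 0.729 ± 0.0612 untreated, 1.15 ± 0.00605 after 6 h and 1.06 ± 0.0471 after 48 h (SD, n = 2 each). After 12 h the libraries were split (1.07 and 0.781), and after 24 h the ratio was 0.829 ± 0.0606. *SH3PXD2B* was thus below its paralog in both untreated and both 24 h libraries, and above it in both libraries at 6 h and at 48 h.

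*CTTN* and *PARVA* did not pass at any time. *CTTN*, on chromosome 11 from 70398404 to 70436584 on the plus strand, encodes cortactin, the actin-binding SRC substrate that marks invadopodia. Its CPM was 320.4 and 344 untreated, 338 and 367 after 6 h, 284 and 354 at 12 h, 334 and 335 after 24 h, then 402 and 355 after 48 h. The 48 h libraries lay above the untreated ones by a log2 fold change of 0.19 (95% interval −0.11 to 0.48, edgeR adjusted p = 0.311), which passed without the 12 h libraries (adjusted p = 0.0429). The 12 h replicates stood on either side of the untreated ones, and without 12 h replicate 2 the 12 h value of −0.23 passed (adjusted p = 0.0454).

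*PARVA*, on the same chromosome from 12377563 to 12535356 on the plus strand, had 120.3 and 110.0 CPM at 0 h, 122 in each library at 6 h, 116 and 107 at 12 h, 102 and 97.5 after 24 h, then 116 and 113 after 48 h. Its log2 fold change at 48 h was −0.01 (95% interval −0.24 to 0.22, edgeR adjusted p = 0.966), and its sign turned under size factors of the DESeq2 type, DESeq2 and limma on TPM. At 24 h it was −0.21 (adjusted p = 0.193), which passed without the 12 h libraries (adjusted p = 0.0251).

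Levels of different genes are compared in TPM, which divides by gene length. *CTTN* led at 0 h with 163 ± 10.1 TPM, followed by *BCAR1* with 86.1 ± 6.93, *PXN* with 53.3 ± 2.82 and *PTK2* with 45.8 ± 0.397 (SD, n = 2 each). *PARVA* (31.5 ± 1.66), *SH3PXD2A* (31.1 ± 3.32) and *TNS3* (30.6 ± 0.591) had overlapping ranges and cannot be ordered. *SH3PXD2B* had 22.8 ± 4.32, *NEDD9* 2.62 ± 0.462 and *PTK2B* 0.602 ± 0.169 TPM (SD, n = 2 each). By 48 h *PTK2* (63.9 ± 4.05) and *TNS3* (61.5 ± 1.46), whose ranges overlapped, came next after *CTTN* (196 ± 11.7) and *BCAR1* (74.2 ± 2.02). *PXN*, at 40.2 ± 1.43 TPM, was below *SH3PXD2B* (47.8 ± 1.56) and *SH3PXD2A* (45.3 ± 3.50), which overlapped each other. *NEDD9* (7.00 ± 0.0974) and *PTK2B* (1.51 ± 0.0509) stayed below the rest.

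**Figure D3:**
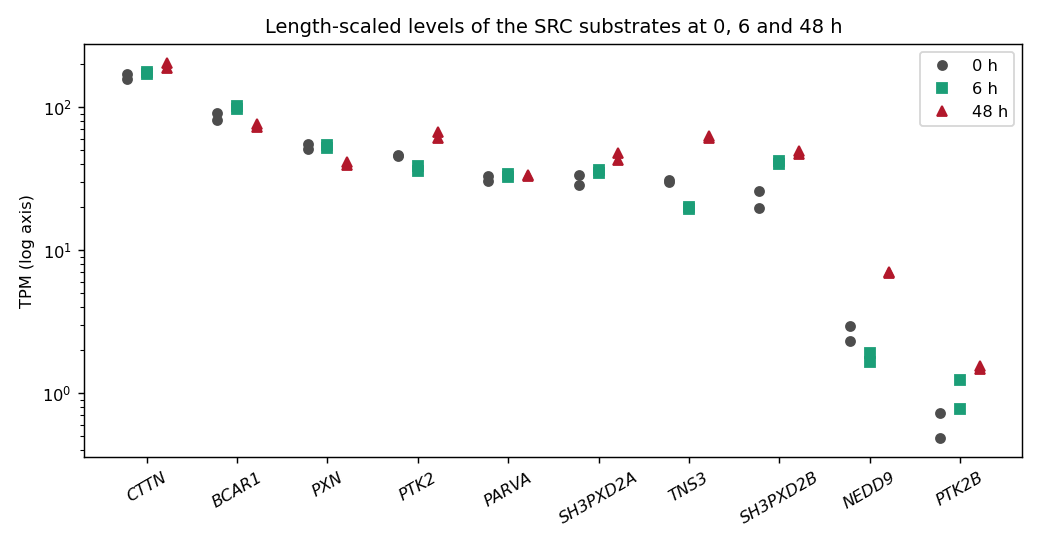
TPM on a log axis (y) of the 10 genes (x, ordered by their mean at 0 h) at 0 h (circles), 6 h (squares) and 48 h (triangles), 1 point per library. *CTTN* and *BCAR1* stay on top, *PXN* is lower at 48 h than at 0 h, and *NEDD9* rises between 6 and 48 h while staying below the 8 genes to its left.

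Across the 10 libraries the genes fell into courses that ran together or against each other. Pearson's r of log2 CPM was 0.965 between *PTK2* and *TNS3*, 0.948 between *NEDD9* and *TNS3*, and 0.917 between *PTK2* and *NEDD9*. *BCAR1* ran against all of them, with r of −0.896 to *TNS3*, −0.907 to *NEDD9* and −0.858 to *PTK2*, and *PXN* likewise with −0.764, −0.867 and −0.823. The points are libraries of 1 time course that share their time points, so these are descriptions. Among 10973 other genes, those with the courses most like *TNS3* were *TRANK1* and *PARP14* (r = 0.991 each), and those most like *PTK2* were *SHFL* (0.992) and *PARP9* (0.988). For *NEDD9* they were *SLC1A1* (0.996) and *TMEM263* (0.989), for *PXN* *NIPA2* and *EFTUD2* (0.988 each), and for *SH3PXD2B* *JHY* (0.966) and *CREB3L2* (0.964). For *SH3PXD2A* they were *CLIP2* (0.956) and *RBM47* (0.955), for *PTK2B* *SARDH* (0.963) and *ARMCX2* (0.959), and for *BCAR1* *MALSU1* (0.980) and *GRK2* (0.967). For the 2 genes that passed in no comparison over all libraries these were *MOGS* (0.951) and *SUPT5H* (0.944) for *CTTN*, and *KDSR* (0.940) and *SUSD6* (0.927) for *PARVA*.

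Of 10 paralogs of the set, 7 passed the filter on low counts, which *EFS*, *CASS4* and *PARVG* did not, and 1 was higher and 1 lower at 48 h (32.3% of all genes called). *TNS4*, a short tensin that binds integrin tails without an actin-binding region, rose from 13.8 to 70.5 CPM at 48 h, a log2 fold change of 2.36 (SE 0.133, edgeR adjusted p = 3.97e-06), after 0.05 at 6 h (adjusted p = 0.896). *TNS1*, the founding tensin, fell from 17.9 to 6.51 CPM at 48 h, a log2 fold change of −1.46 (SE 0.196, adjusted p = 0.000339). *TNS2*, chosen after its values were seen, was higher at 6 h (log2 fold change 0.76, adjusted p = 0.0188) and at 24 h (0.63, adjusted p = 0.00966). Between 6 and 48 h *TNS2* fell by 0.49 (adjusted p = 0.0196). Leaving out both 12 h libraries gave 2 higher paralogs and 1 lower at 48 h (54.3% of all genes called).

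Of 31 other focal adhesion scaffolds and links to actin, 25 did not pass at 48 h, 4 were higher and 2 lower (32.3% of all genes called), with a median log2 fold change of −0.09. *SORBS2*, which encodes an SH3-domain adaptor of actin structures, rose (log2 fold change 1.20, edgeR adjusted p = 0.000458), and *PDLIM7*, which encodes a PDZ and LIM-domain protein (−0.64, adjusted p = 0.00463), and *FERMT1*, the gene of kindlin-1 (−0.81, adjusted p = 0.0112), fell. Vinculin (*VCL*), chosen after its values were seen, had 446 and 477 CPM at 0 and 48 h (log2 fold change 0.10, adjusted p = 0.752). The counts were 7 higher and 8 lower without both 12 h libraries (54.3% of all genes called).

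Binding partners of CAS proteins, FAK and paxillin included 5 higher and 1 lower of 26 genes at 48 h (32.3% of all genes called), with a median of 0.14. *BCAR3*, an adaptor that binds p130Cas and HEF1, rose from 236 to 433 CPM (log2 fold change 0.88, SE 0.131, edgeR adjusted p = 0.000669). *DOCK1*, the RAC exchange factor downstream of CAS and CRK, had 0.73 (adjusted p = 0.000746). *ASAP1*, an ARF GTPase-activating protein of focal adhesions and invadopodia, was lower at all 4 times, from −0.82 at 6 h (adjusted p = 0.00655) to −0.54 at 48 h (adjusted p = 0.00692). At 6 h 3 of the 26 were lower, against 1.49% of all genes. Without both 12 h libraries 9 were higher and 4 lower at 48 h (54.3% of all genes called).

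Of 37 genes of invadopodium actin, trafficking and matrix breakdown, 9 were higher and 3 lower at 48 h, a share near the 32.3% of all genes called, with a median of 0.10. *SVIL*, which encodes the actin- and myosin-binding supervillin, rose from 86.8 to 282 CPM (log2 fold change 1.70, SE 0.113, edgeR adjusted p = 8.16e-06), and *SYNJ2*, an inositol phosphatase gene, from 145 to 244 CPM (0.75, adjusted p = 0.000352). *CD44*, the hyaluronan receptor gene, fell from 460 to 248 CPM (−0.89, adjusted p = 0.00047), and the ARP2/3 subunit gene *ARPC1A* had −0.66 (adjusted p = 0.0391). At 48 h 16 were higher and 12 lower without both 12 h libraries (54.3% of all genes called).

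Of 11 kinases and phosphatases of SRC sites and their regulators, 1 was higher and 2 lower at 48 h (32.3% of all genes called). *CSK*, the kinase that holds SRC family members inactive, fell from 191 to 103 CPM (log2 fold change −0.89, SE 0.160, edgeR adjusted p = 0.00204), and the phosphatase gene *PTPN11* had −0.47 (adjusted p = 0.0295). *PTPRA*, a receptor phosphatase that activates SRC, had 0.39 (adjusted p = 0.0157). *SRC* itself, chosen after its values were seen, had 47.3 CPM at 0 h, 67.3 at 6 h (log2 fold change 0.51, adjusted p = 0.0934) and 39.8 at 48 h (−0.25, adjusted p = 0.199), and fell by 0.76 between 6 and 48 h (adjusted p = 0.00215). When both 12 h libraries were left out, 2 of the 11 were higher and 5 lower at 48 h (54.3% of all genes called).

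**Figure D4:**
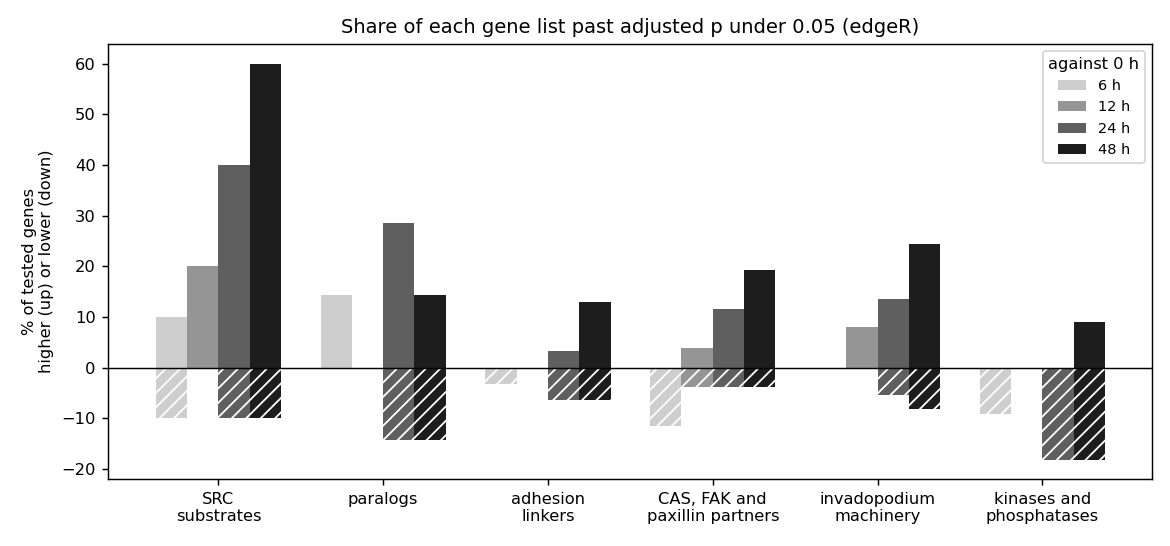
Share of tested genes (y axis, percent) higher (bars above 0) or lower (hatched bars below 0) than at 0 h. Calls are at an adjusted p under 0.05 from edgeR, at 6, 12, 24 and 48 h (light to dark). Bars are for the 10 genes, labeled SRC substrates although α-parvin is an exception, and for 5 lists of related genes. The bars of the SRC substrates rest on 10 genes, and 6 of these were higher and 1 lower at 48 h, where 16% of all genes tested were higher and 16.3% lower. Differences between the lists were not tested.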

How the data were processed

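From the paper's methods and the submitters' processing notes, the authors had checked reads with FastQC and MultiQC, trimmed with Trim Galore, used STAR 2.5.2b for alignment to hg38 and featureCounts for counting; the annotation and strand setting are not given in the sources used here. The authors deposited raw counts and TPM per gene symbol for the 10 libraries. The ratio of counts to deposited TPM varied by the same 7.12% over the libraries for each of the 10 genes, as with 1 fixed length per gene. At 40942913 to 49133774 counts per library, *PTK2B* had the fewest counts of the set and the widest intervals.

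In R 4.3.3, edgeR 4.0.16 was run on the raw counts (filter on low counts by group, TMM, 1 mean per group over all 5 groups, robust quasi-likelihood test, Benjamini-Hochberg adjustment over all genes tested). SE was the absolute log2 fold change over the square root of F. Positions and exon overlaps come from GENCODE on GRCh38 and promoters from RefSeq.

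The members, lists and tests were chosen with earlier results of these data known. The text names all members, the 2 higher and 2 lower genes of each list with the smallest adjusted p at 48 h, and the 2 genes most like each member by Pearson's r of log2 CPM among genes whose average log2 CPM was 2 or more. The values of some genes are not reported here. Protein motifs planned for the members were not analysed here. Alternatives were no filter, DESeq2-type size factors, DESeq2 1.42.0 and edgeR on all libraries or 2 groups, a replicate block, limma 3.58.1 on log2(TPM + 1) or log2(TPM + 0.1) with at least 1 TPM in 2 libraries or unfiltered, and each library or both 12 h libraries left out. A lone remaining sample was taken to vary as the other groups do. The model steps were tested on simulated data.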

Additional observations from a re-analysis of the deposited data

Results flagged for a closer look

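Effects at 6 and 48 h differed by their own test for 5 of the 10 genes, where 33.2% of all genes tested were called. Between 6 and 48 h the log2 difference was 1.90 for *NEDD9* (SE 0.167, edgeR adjusted p = 2.95e-05), 1.56 for *TNS3* (SE 0.119, adjusted p = 1.44e-05) and 0.70 for *PTK2* (adjusted p = 0.000504). It was −0.51 for *BCAR1* (SE 0.113, adjusted p = 0.00666) and −0.47 for *PXN* (SE 0.119, adjusted p = 0.0118). Both 48 h libraries lay beyond both 6 h libraries in each of the 5, as in 9 of the 10 genes and 76% of all genes tested. Groups of 2 libraries are too small for a test of single outlying samples.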

How the results depend on the processing

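Over all alternatives, 990 values of the 10 genes were recomputed. Of these, 842 kept direction and side of the threshold, 73 lost a call, 38 gained one and 37 turned sign, none of them a value called over all libraries. The calls of *NEDD9*, *TNS3* and *SH3PXD2B* at 48 h, and of *PTK2*, *NEDD9* and *TNS3* between 6 and 48 h, held in all 20 alternatives.

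The number of the 10 genes changed at 6 h was 2 over all libraries (2.73% of all genes called). It was 4 with edgeR on the 2 groups alone (20.5%) and 4 without both 12 h libraries (20.7%). It was 0 with limma on log2(TPM + 1) (1.87%), on log2(TPM + 0.1) (2.03%) and unfiltered (0.767%), each with 4 of the 10 at an unadjusted p under 0.05. At 12 h (2, with 7.15% of all genes called) it was 0 with edgeR on the 2 groups alone. In that fit 0 of 14603 genes were called, and 2 of the 10 had an unadjusted p under 0.05. At 12 h it was 1 with DESeq2 on the 2 groups alone (1.41% of all genes) and 1 with unfiltered limma (2%). At 24 h (5, with 20% of all genes called) it was 3 with unfiltered limma (9.59%). With 1 library left out it ran from 0 to 5 at 6 h, from 0 to 3 at 12 h, from 1 to 7 at 24 h, from 3 to 9 at 48 h and from 3 to 6 between 6 and 48 h. It was 0 at 6 h without any library of 0, 6 or 24 h or 48 h replicate 1 (2 to 4 genes at an unadjusted p under 0.05 by edgeR) and 5 without either 12 h library, and 0 at 12 h without either 0 h library (3 at an unadjusted p under 0.05). At 24 h it was 1 to 3 without a library of 0 or 24 h, at 48 h 3 or 4 without 0 h replicate 2 or a 48 h library, and between 6 and 48 h 3 without 6 h replicate 2 or 48 h replicate 2. In these fits with 1 library left out, the share of all genes called also fell where these counts fell and rose where they rose. The cause was not tested. With the replicate number as a block, 1 gene was changed at 6 h, since *SH3PXD2B* lost its call (log2 fold change 0.85, edgeR adjusted p = 0.0531), and no other count moved. Whether the replicate numbers pair the samples is not given in the labels. Deviations of same-numbered libraries from their group means had r of −0.037 to 0.104 over 10 pairs of groups. With 2 libraries per group, these values show no strong shared shift but cannot decide whether samples were paired.

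Sign turned for these uncalled log2 fold changes. Under limma on log2(TPM + 1), log2(TPM + 0.1) and unfiltered, *BCAR1* had 0.066, 0.067 and 0.066 at 12 h and 0.041, 0.042 and 0.041 at 24 h, *CTTN* 0.039 in each at 12 h, and *PARVA* 0.060, 0.062 and 0.060 at 12 h and 0.064, 0.066 and 0.064 at 48 h. *PXN* had 0.018, 0.019 and 0.018 and *TNS3* 0.024, 0.025 and 0.024 at 12 h. *PARVA* at 48 h had 0.013 with DESeq2-type size factors and 0.013 with DESeq2 on all libraries, and *PXN* at 6 h 0.001 with no filter. With 1 library left out the log2 fold change ran from −0.146 to 0.048 for *BCAR1* at 12 h, −0.15 to 0.043 for *BCAR1* at 24 h, −0.233 to 0.099 for *CTTN* at 12 h, −0.043 to 0.054 for *CTTN* at 24 h, −0.122 to 0.014 for *PARVA* at 12 h, −0.078 to 0.057 for *PARVA* at 48 h, −0.217 to 0.044 for *PXN* at 12 h, −0.076 to 0.071 for *PXN* at 6 h and −0.204 to 0.044 for *TNS3* at 12 h.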
